A study of Homo sapiens with 8 samples.

Results

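The genes described are 48 homeobox genes that lie outside the HOX clusters, chosen by name as developmental transcription factors of 5 classes, of 19483 genes that the array probes could be named for. They were measured by 54 of 34127 non-control probes, with 19 genes of the NK and NK-like class, 3 HOX-like genes, 10 paired-type genes, 6 LIM genes and 10 genes of the TALE class. Each probe was assigned through its RefSeq transcript, and 6 genes (CDX1, OTX1, PITX1, LHX9, PBX3 and IRX2) had several probes.

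Homeobox genes encode transcription factors that bind DNA through a helical homeodomain and set the identity of cells along the axes and within the organs of an embryo. Most are used in a few lineages and are kept silent elsewhere, by Polycomb complexes or by DNA methylation of their CpG-rich promoters. TET1 is a dioxygenase that oxidizes 5-methylcytosine to 5-hydroxymethylcytosine, a step toward loss of methylation, and a methyl-CpG-binding domain (MBD) holds a protein at methylated DNA.

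The arrays compared 4 vectors in HEK293T, a line derived from human embryonic kidney, after stable transfection. Each vector was represented by 2 stable lines, each of them 1 clone measured on 1 array: empty vector #1 and #2, the wild-type TET1 catalytic domain alone (TET1-CDwt #2 and #5), the same domain joined to an MBD (MBD-TET1-CDwt #3 and #10) and the MBD fusion with an inactive catalytic domain (MBD-TET1-CDmut #9 and #10). All 8 lines were grown in one medium, and the vector was the labelled difference between them. Slide 1 carried the empty vector and TET1-CDwt arrays, and slide 2 the active and inactive MBD fusions. A difference between slides and one between vectors cannot be told apart when an MBD fusion is set against empty vector, whereas the active and inactive fusions were compared within slide 2. All 7 genes listed for HEK293T were well above background on all 8 arrays, and of 5 genes known from the prostate line LNCaP, which the study also used, 2 were so on all arrays. Of the blood cell, fibroblast and endothelial lists, 2 of 4, 1 of 4 and 1 of 3 genes were well above background on all 8 arrays. On no array were 2, 2 and 1 of them so. In any comparison, 0 genes of these 3 lists were at least 2-fold higher.

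Levels are log2 intensities minus the 75th percentile of the array, so that 0 is the intensity of a probe at that percentile, and a step of 1 is 2-fold. That percentile was an intensity of 328 to 527, and 63.2% to 68.2% of probes were well above background on an array, the scanner software's flag for a signal clear of its surroundings. The lowest such signal lay between -6.01 and -5.51 on the log2 scale. In RNA of whole cultures, a lower level in every cell and fewer cells expressing a gene cannot be told apart.

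Promoters were taken from RefSeq (GRCh38.p14) as 250 bases before to 50 bases after the gene start, and 37 of the 48 members had one in the table used. Those of PRRX2, TLX3, GBX2 and LHX2 are shown because MBD-TET1-CDwt exceeded both empty vector and the inactive fusion by 2-fold or more for these genes (as it did for BARX1, which had no entry), and that of MEIS3 because it was the one member lower in both comparisons and called by the test. They run 5' to 3' on the strand of the gene, at chr9:129665397-129665696 (plus strand, PRRX2), chr5:171308998-171309297 (plus strand, TLX3), chr2:236168337-236168636 (minus strand, GBX2), chr9:124011518-124011817 (plus strand, LHX2) and chr19:47422184-47422483 (minus strand, MEIS3). Capitals mark each CG dinucleotide, the site of DNA methylation.
PRRX2: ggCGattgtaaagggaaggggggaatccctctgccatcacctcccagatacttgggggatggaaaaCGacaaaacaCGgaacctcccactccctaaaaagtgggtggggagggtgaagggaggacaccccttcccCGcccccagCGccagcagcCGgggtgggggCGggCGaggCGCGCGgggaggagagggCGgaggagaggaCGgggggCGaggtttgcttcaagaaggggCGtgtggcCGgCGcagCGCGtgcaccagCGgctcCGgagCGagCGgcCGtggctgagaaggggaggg
TLX3: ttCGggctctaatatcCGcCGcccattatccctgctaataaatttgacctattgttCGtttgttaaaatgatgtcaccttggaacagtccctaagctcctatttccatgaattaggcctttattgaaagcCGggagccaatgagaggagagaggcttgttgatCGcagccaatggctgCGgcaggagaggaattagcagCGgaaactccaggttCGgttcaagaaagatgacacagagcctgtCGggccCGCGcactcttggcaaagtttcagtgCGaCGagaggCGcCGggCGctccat
GBX2: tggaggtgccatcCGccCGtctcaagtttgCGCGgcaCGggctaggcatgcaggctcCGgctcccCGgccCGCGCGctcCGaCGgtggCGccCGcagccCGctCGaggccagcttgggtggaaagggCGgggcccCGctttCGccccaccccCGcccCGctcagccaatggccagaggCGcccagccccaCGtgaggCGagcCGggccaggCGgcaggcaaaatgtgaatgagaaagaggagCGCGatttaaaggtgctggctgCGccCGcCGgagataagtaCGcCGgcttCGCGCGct
LHX2: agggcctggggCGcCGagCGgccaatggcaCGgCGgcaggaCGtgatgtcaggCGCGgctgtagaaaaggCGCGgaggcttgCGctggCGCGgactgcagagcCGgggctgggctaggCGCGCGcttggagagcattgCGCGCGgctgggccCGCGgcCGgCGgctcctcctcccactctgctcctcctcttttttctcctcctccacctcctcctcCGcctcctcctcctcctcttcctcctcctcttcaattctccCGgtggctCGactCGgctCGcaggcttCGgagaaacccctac
MEIS3: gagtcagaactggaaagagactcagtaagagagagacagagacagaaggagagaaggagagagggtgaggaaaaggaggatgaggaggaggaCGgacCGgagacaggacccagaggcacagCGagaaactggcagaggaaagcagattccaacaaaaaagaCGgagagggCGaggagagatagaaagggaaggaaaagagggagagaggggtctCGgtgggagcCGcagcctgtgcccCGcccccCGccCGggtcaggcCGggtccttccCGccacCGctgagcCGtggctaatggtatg
The window held 24 CG dinucleotides at PRRX2, 17 at TLX3, 36 at GBX2, 30 at LHX2 and 14 at MEIS3, and the share of 15175 gene promoters with at least as many was 47.1%, 63.4%, 17.4%, 31.0% and 68.2%. More than 50% GC together with an observed to expected CpG ratio over 0.6 was met by 31 of the 37 members with a promoter (83.8%), by 64.5% of all 15175 and by 54 of 66 other homeobox genes outside the HOX clusters (81.8%). The median was 24 CG dinucleotides for members, 22 for all genes and 23 for the other homeobox genes. Among the members 2-fold or more above empty vector in MBD-TET1-CDwt, 6 had a promoter and 5 of these met both conditions, and TLX2, with an observed to expected ratio of 0.55, did not. MEIS3 missed the ratio as well, at 0.59. DNA methylation was not measured on these arrays.

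Most members had a measurable signal in HEK293T already. A probe was well above background on all 8 arrays for 38 of 48 members (79.2%, where the share over all genes was 68.7%), and 4 members (PRRX1, ALX4, LHX4 and IRX1, 8.33%) were not well above background on any array, against 20.4% of all genes. The other 6, TLX1, TLX2, TLX3, PRRX2, MEIS3 and IRX2, were measured on some arrays.

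MBD-TET1-CDwt was set against empty vector to ask what the targeted active domain did to these genes. By size, 9 of 48 members (18.8%) were at least 2-fold higher, where 1.24% of all genes were, and 5 (NKX6-2, TLX2, TLX3, BARX1 and PRRX2) were at least 5-fold higher, where 0.303% of all genes were. The 9 were 6 of 19 NK and NK-like genes, 1 of 3 HOX-like genes (GBX2), 1 of 10 paired-type genes (PRRX2), 1 of 6 LIM genes (LHX2) and 0 of 10 TALE genes. Earlier results of NKX6-2 and TLX2, which are in the counts of 9 and of 5, were known when the members were chosen. MEIS3 was the one member at least 2-fold lower, where 0.842% of all genes were. Of 42 members tested by limma over 22530 probes, 0 were called higher after Benjamini-Hochberg adjustment (0.139% of tested genes were), although 10 were higher at an unadjusted p under 0.05 (3.78% of tested genes). MEIS3 was the one lower at that level (4.27%). The difference between the clones of MBD-TET1-CDwt was large for most of the 9, and it is described after their values.

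**Figure D1:**
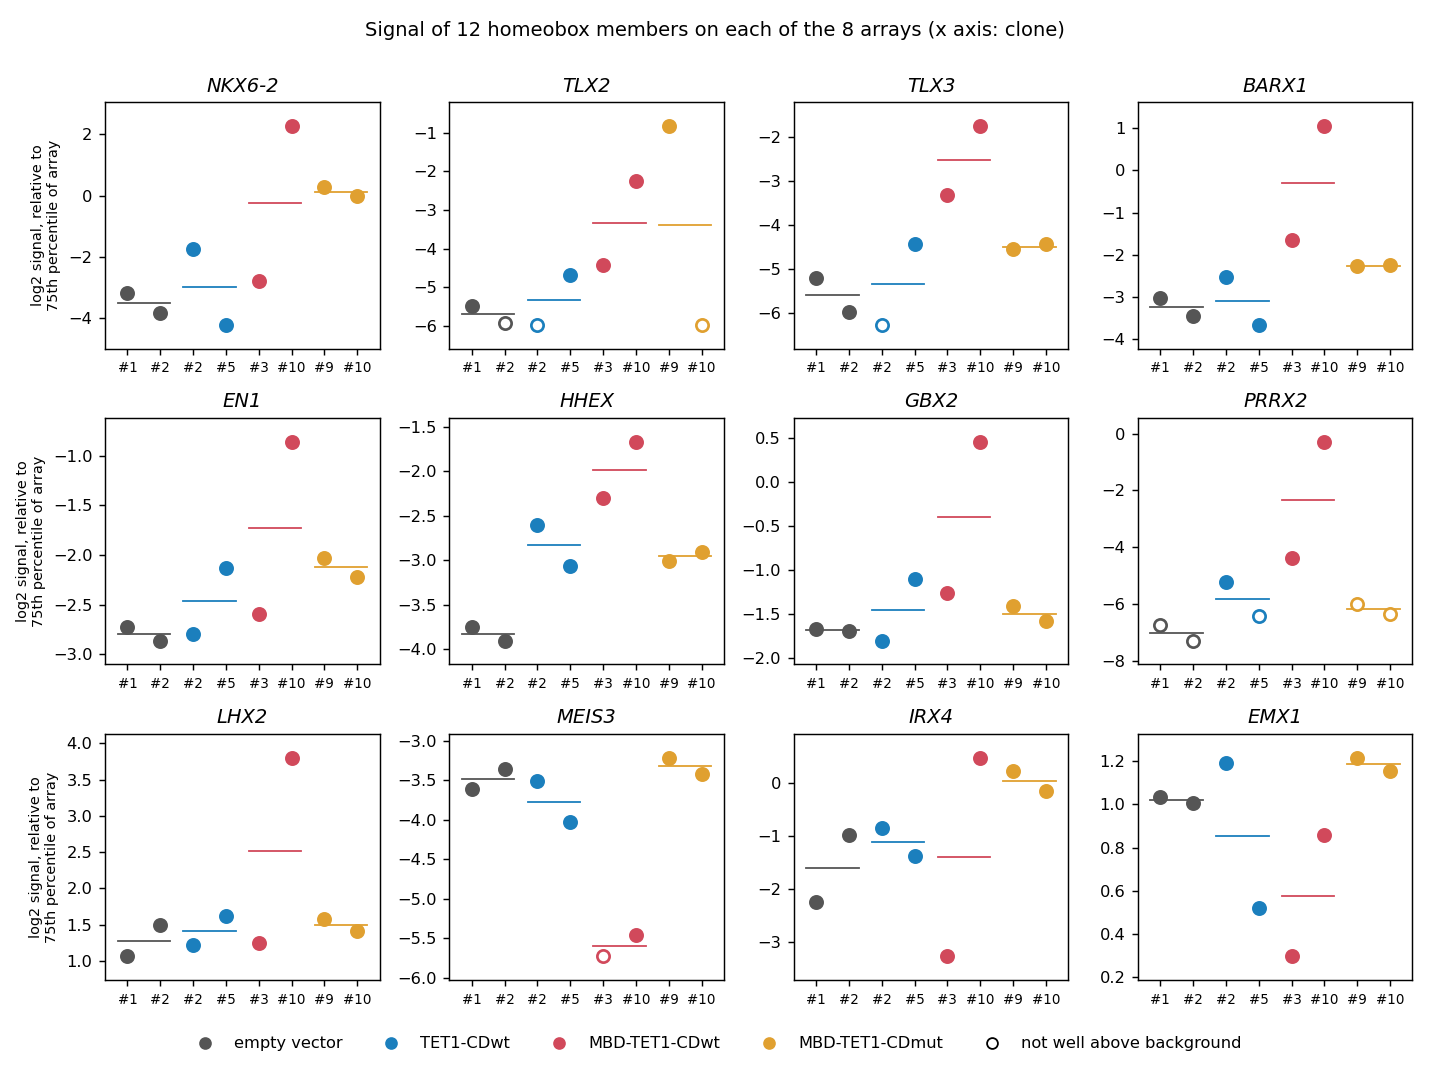
Signal of 12 members on each of the 8 arrays, as log2 intensity relative to the array's 75th percentile, with clone numbers on the x axis, colours for the vectors, lines for group means and hollow points for signals not well above background. PRRX2 was well above background on 3 arrays, both MBD-TET1-CDwt arrays among them, and MEIS3 was lowest on both MBD-TET1-CDwt arrays.

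Of the NK and NK-like class, TLX3 directs the excitatory fate of sensory neurons. Its level was -5.20 and -5.97 in empty vector, -6.27 and -4.43 in TET1-CDwt, -3.31 and -1.76 in MBD-TET1-CDwt, and -4.54 and -4.44 in MBD-TET1-CDmut. Both MBD-TET1-CDwt arrays lay above the other 6. The mean was 8.29-fold higher than in empty vector (log2 difference 3.05, SE 0.70, adjusted p = 0.430 by limma) and 3.88-fold higher than in MBD-TET1-CDmut.

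BARX1, a regulator of stomach mesenchyme and molar teeth, was at -3.02 and -3.46 in empty vector, -2.54 and -3.66 in TET1-CDwt, -1.66 and 1.05 in MBD-TET1-CDwt, and -2.27 and -2.25 in MBD-TET1-CDmut. Again both MBD-TET1-CDwt arrays exceeded the remaining 6. The difference from empty vector was 7.66-fold (log2 2.94, SE 0.81, adjusted p = 0.563 by limma), and that from MBD-TET1-CDmut was 3.88-fold.

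HHEX, which acts in anterior endoderm, liver and blood progenitors, had the same order of arrays with a smaller gap between the clones. It was at -3.75 and -3.90 in empty vector, -2.60 and -3.06 in TET1-CDwt, -2.30 and -1.67 in MBD-TET1-CDwt, and -3.01 and -2.90 in MBD-TET1-CDmut. The difference from empty vector was 3.58-fold (log2 1.84, SE 0.27, adjusted p = 0.139 by limma). HHEX was also above empty vector in every clone of the other vectors, with mean log2 differences of 0.99 for the domain alone and 0.87 for the inactive fusion.

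NKX6-2, a regulator of oligodendrocytes and motor neurons, was high in clones of both fusions. Its level was -3.18 and -3.83 in empty vector, -1.76 and -4.22 in TET1-CDwt, -2.78 and 2.27 in MBD-TET1-CDwt, and 0.28 and -0.03 in MBD-TET1-CDmut. MBD-TET1-CDwt #10 was the highest array and #3 lay within the range of the TET1-CDwt arrays. The mean of MBD-TET1-CDwt was 9.51-fold higher than empty vector (adjusted p = 0.796 by limma), but that of the inactive fusion was 12.4-fold higher, with both of its clones above all 4 arrays of slide 1.

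TLX2, a regulator of enteric neurons, was at -5.47 and -5.91 in empty vector, -5.96 and -4.68 in TET1-CDwt, -4.41 and -2.25 in MBD-TET1-CDwt, and -0.84 and -5.96 in MBD-TET1-CDmut. The highest value was MBD-TET1-CDmut #9, while #10 of the same construct was not well above background. The SD between the clones of MBD-TET1-CDmut was 3.62 on the log2 scale. TLX1, the paralog needed for spleen formation, was well above background on MBD-TET1-CDwt #10 alone, at -4.97.

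EN1, which patterns the midbrain-hindbrain region and the ventral limb, was at -2.73 and -2.86 in empty vector, -2.79 and -2.13 in TET1-CDwt, -2.59 and -0.86 in MBD-TET1-CDwt, and -2.03 and -2.22 in MBD-TET1-CDmut. Only #10 stood above the other arrays, and the 2.10-fold difference from empty vector (adjusted p = 0.799 by limma) came with #3 below both MBD-TET1-CDmut arrays. EMX1, a factor of the cerebral cortex, was among the members with the largest shortfall in MBD-TET1-CDwt. It was at 0.30 and 0.86 there, at 1.22 and 1.16 in MBD-TET1-CDmut and at 1.03 and 1.01 in empty vector, a log2 difference of -0.61 from MBD-TET1-CDmut (SE 0.28, adjusted p = 0.745 by limma).

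Outside the NK class, PRRX2, a paired-type factor of limb and craniofacial mesenchyme, had the largest difference. Its level was -6.75 and -7.28 in empty vector, -5.22 and -6.43 in TET1-CDwt, -4.39 and -0.29 in MBD-TET1-CDwt, and -5.98 and -6.36 in MBD-TET1-CDmut. The signal cleared the background flag in MBD-TET1-CDwt #3 and #10 and, among the rest, in TET1-CDwt #2 alone. With the undetected signals set to the lowest detectable one, the mean of MBD-TET1-CDwt exceeded empty vector by at least 11.9-fold and MBD-TET1-CDmut by at least 9.12-fold. limma was fitted to the signals as measured, with log2 differences of 4.68 and 3.83 (SE 1.17, adjusted p = 0.511 and 0.626). PRRX2 was the one member detected in this sense in both clones of MBD-TET1-CDwt and in neither of empty vector, a pattern of 0.262% of all genes. With 1 MBD-TET1-CDwt array sufficient, TLX1 was added, and 1.63% of all genes met that pattern. No member did so in both clones of TET1-CDwt (0.164% of all genes) or of MBD-TET1-CDmut (0.0513%).

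GBX2, which positions the hindbrain side of the midbrain-hindbrain boundary, was at -1.67 and -1.70 in empty vector, -1.80 and -1.10 in TET1-CDwt, -1.26 and 0.46 in MBD-TET1-CDwt, and -1.41 and -1.58 in MBD-TET1-CDmut. LHX2, a LIM factor of the eye field and forebrain, was at 1.06 and 1.49 in empty vector, 1.22 and 1.62 in TET1-CDwt, 1.24 and 3.80 in MBD-TET1-CDwt, and 1.58 and 1.41 in MBD-TET1-CDmut. For both genes, #10 was the highest array and #3 lay within the range of the TET1-CDwt arrays. The mean differences from empty vector were 2.43-fold for GBX2 and 2.37-fold for LHX2 (adjusted p = 0.755 and 0.850 by limma).

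Smaller differences that both clones shared were seen in members already well expressed. PITX1, which specifies the hindlimb, was at 3.33 and 3.48 in MBD-TET1-CDwt and between 2.65 and 2.98 on the other 6 arrays. Its other probe gave the same order, with 0.38 and 0.37 against -0.13 to 0.11. The log2 differences from empty vector were 0.66 and 0.48, neither called by limma (adjusted p = 0.563 and 0.690). In all, both MBD-TET1-CDwt arrays lay above the other 6 for 12 of 48 members (where 6.60% of all genes did so): TLX3, BARX1, HHEX, PRRX2, PITX1, NKX2-5, EN2, OTX1, LHX9, MEIS1, IRX3 and IRX5. For NKX2-5, a heart factor, and EN2, a paralog of EN1, the difference from empty vector was 0.13 and 0.19 on the log2 scale.

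MEIS3 ran the other way. It encodes a TALE cofactor that binds DNA with PBX and HOX proteins and acts in hindbrain patterning. Its level was -3.60 and -3.36 in empty vector, -3.50 and -4.03 in TET1-CDwt, -5.73 and -5.45 in MBD-TET1-CDwt, and -3.21 and -3.42 in MBD-TET1-CDmut. Both MBD-TET1-CDwt arrays lay below the other 6, an order seen in 3.90% of all genes, and #3 was not well above background. MEIS3 fell by 2.11 on the log2 scale against empty vector (SE 0.24, adjusted p = 0.0444 by limma, where 0.0208% of tested genes were called lower), or 4.07-fold with #3 at the detection limit. Against MBD-TET1-CDmut it fell by 2.27 (SE 0.24, adjusted p = 0.0337 by limma). With normexp background correction and an offset of 50, the difference from empty vector was -0.34 (adjusted p = 0.830 by limma) and that from MBD-TET1-CDmut -0.47 (0.803). That offset is added to every intensity and shrinks log2 differences between dim signals such as those of MEIS3. The call was also lost when only the 4 arrays compared were fitted, with adjusted p = 0.207 and 0.0945 by limma. The same held without a filter on dim probes (0.122 and 0.104) and with trend and robust (0.0895 and 0.0787). It was lost in most fits with a clone left out, and kept with quantile and median scaling. Over every setting in which MEIS3 was tested, the adjusted p ran from 0.0307 to 0.830 against empty vector and from 0.0181 to 0.803 against MBD-TET1-CDmut.

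Other MEIS and PBX members differed less. MEIS1 and MEIS2, its paralogs, had log2 differences of 0.46 and 0.44 from empty vector, and PBX2 and PBX3, the partners of MEIS proteins, of 0.08 and 0.17, none of them called by limma (adjusted p = 0.756 for MEIS1). The other probe of PBX3, also well above background on all 8 arrays, lay on the other side of 0, at -0.14.

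The inactive fusion was the control for binding without catalysis, on the same slide. Against it, MBD-TET1-CDwt was at least 2-fold higher for 5 of 48 members (10.4%, where 1.27% of all genes were), namely TLX3, BARX1, GBX2, PRRX2 and LHX2. MEIS3 and IRX4 were at least 2-fold lower, where 1.04% of all genes were. IRX4, a regulator of the cardiac ventricle, was at -2.25 and -0.97 in empty vector, -0.84 and -1.38 in TET1-CDwt, -3.28 and 0.49 in MBD-TET1-CDwt, and 0.24 and -0.15 in MBD-TET1-CDmut. The clones of MBD-TET1-CDwt were thus the lowest and the highest of the 8 arrays, and the mean difference of -1.44 from MBD-TET1-CDmut had an SE of 1.09 (adjusted p = 0.859 by limma). Members called higher by limma numbered 0, where 0.118% of tested genes were called, and 7 were higher at an unadjusted p under 0.05 (4.08% of tested genes). MEIS3 was again the one lower at that level (4.47%). With normexp background correction, only BARX1 and PRRX2 were at least 2-fold higher than in MBD-TET1-CDmut, where 0.339% of all genes were.

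**Figure D2:**
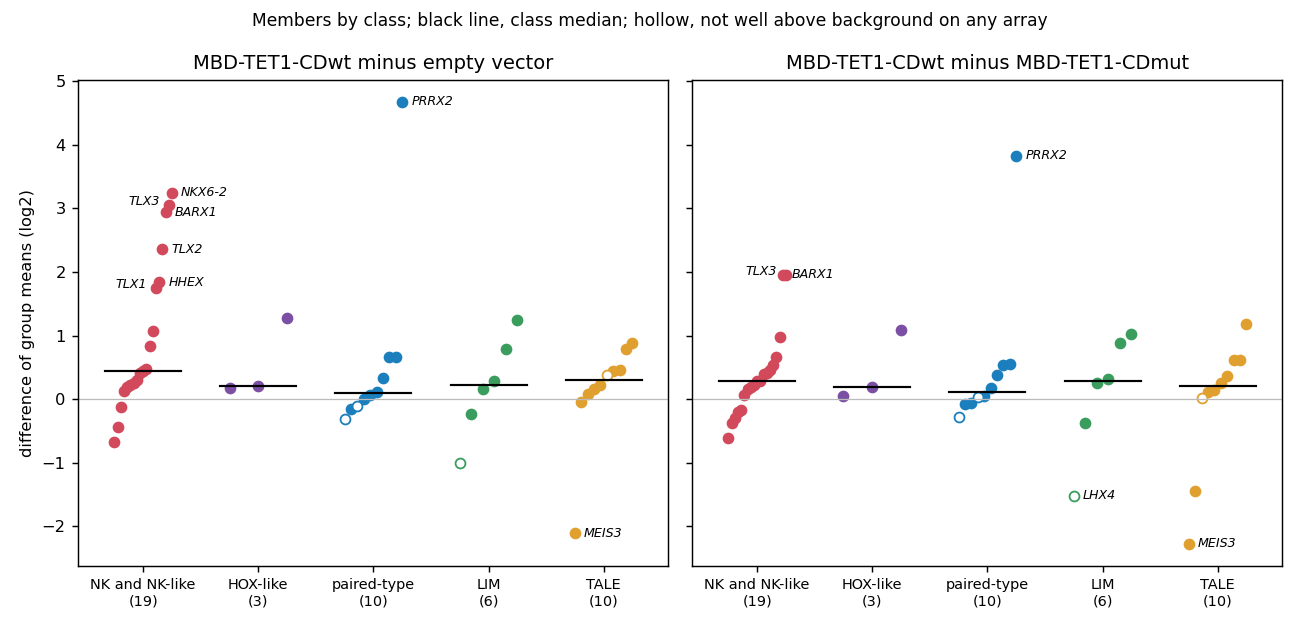
Difference of the MBD-TET1-CDwt mean from empty vector (left) and from MBD-TET1-CDmut (right) on the log2 scale for the 48 members by class, each point 1 gene. PRRX2 has the largest difference and MEIS3 the lowest in both panels, and the median of the NK and NK-like class against empty vector is 0.44.

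The median log2 difference over the 48 members was 0.29 between MBD-TET1-CDwt and empty vector (0.06 over all genes) and 0.24 between MBD-TET1-CDwt and MBD-TET1-CDmut (0.03 over all genes). Positive differences were found for 37 of 48 members (77.1%, where 57.3% of all genes were positive) and for 36 of 48 (against 57.1% of all genes). Between TET1-CDwt and empty vector the median was 0.00, and 24 members were above and 24 below.

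The catalytic domain without the MBD was set against empty vector on slide 1. By size, 0 of 48 members were at least 2-fold higher (0.298% of all genes were) and 0 were at least 2-fold lower (0.293%). limma called 0 members in either direction (0.0% of tested genes), and HHEX alone had an unadjusted p under 0.05, on the higher side (0.86% of tested genes were higher and 1.69% lower at that level). NKX6-1, a regulator of beta cells and motor neurons, had the lowest difference, with -2.58 and -3.73 in empty vector and -4.22 and -3.97 in TET1-CDwt.

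Between MBD-TET1-CDmut and empty vector, 3 members (6.25%) were at least 2-fold higher, NKX6-2, TLX3 and IRX4, where 0.359% of all genes were, and 0 were lower (0.277%). The fold was 12.4 for NKX6-2, 2.14 for TLX3 and 3.15 for IRX4. limma called 0 members in either direction (0 of 22530 probes), with NKX6-2 and HHEX higher at an unadjusted p under 0.05 (1.11% of tested genes were higher and 1.64% lower). All comparisons with empty vector share its arrays. The comparison within slide 2 shares the MBD-TET1-CDmut arrays with that of MBD-TET1-CDmut against empty vector. It shares the MBD-TET1-CDwt arrays with that of MBD-TET1-CDwt against empty vector.

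**Figure D3:**
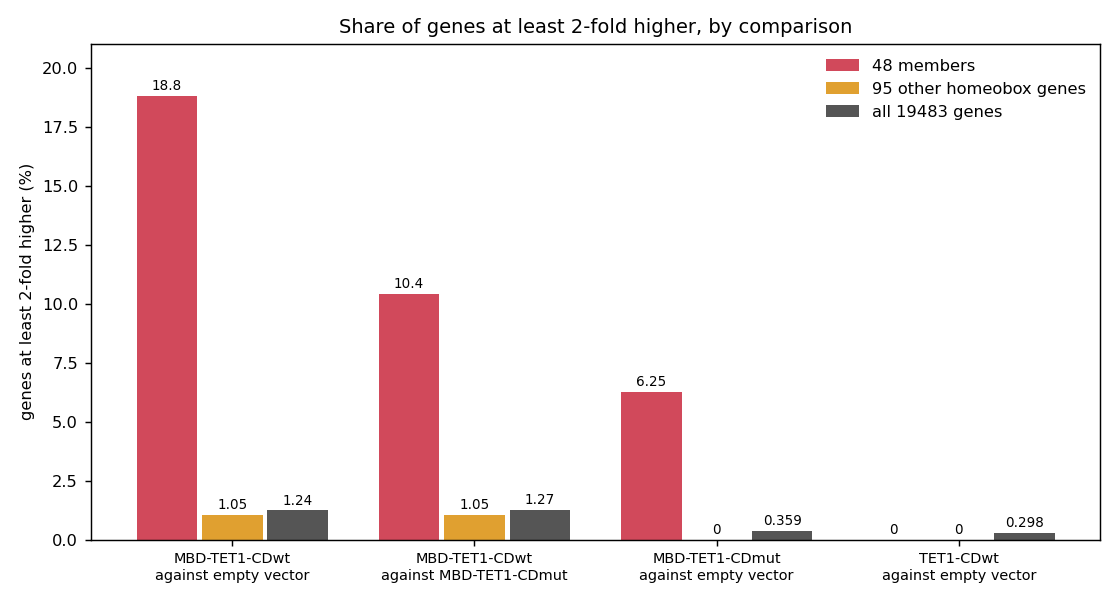
Percentage of genes at least 2-fold higher in each of the 4 comparisons, for the 48 members, 95 other homeobox genes outside the HOX clusters and all 19483 genes. Members reach 18.8%, 10.4%, 6.25% and 0%, and 1 of the 95 other homeobox genes passed in the comparison of MBD-TET1-CDwt with empty vector.

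The difference between the active and inactive fusion was also set against that between TET1-CDwt and empty vector, each within 1 slide. limma called 0 of 42 members in this difference of differences, where 10 probes were called in all and 0.0625% of tested genes were called higher. At an unadjusted p under 0.05, LHX9 was higher (2.35% of tested genes were) and MEIS3 lower (1.99%), the latter at -1.99 (SE 0.34, adjusted p = 0.396).

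The clones of MBD-TET1-CDwt differed more over the members than those of other vectors. Over the 44 member probes tested, the SD of a clone was 1.07 on the log2 scale in MBD-TET1-CDwt, compared with 0.29 in empty vector, 0.58 in MBD-TET1-CDmut and 0.52 in TET1-CDwt. Over all 22530 probes the SD was also largest for MBD-TET1-CDwt, at 0.50. The inactive fusion had 0.25 there, empty vector 0.35 and the domain alone 0.38. By this SD the members varied more than all probes for both fusions and for the domain alone, but not for empty vector. For MBD-TET1-CDmut the value rested mostly on TLX2, whose clones had an SD of 3.62. The next largest there among members tested was 0.56, for SHOX2. With the domain alone also above its value over all probes, a larger spread over the members was not particular to the active fusion. Clone #10 was the highest of the 8 arrays for 25 of 48 members (52.1%, where it was for 16.6% of all genes), and #3 was for 8 (16.7%, against 28.0%).

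Clone #10 was at least 2-fold above each of the other 7 arrays for 10 members (20.8%, where 1.65% of all genes were). These were NKX6-2, TLX3, BARX1, EN1, GBX2, PRRX2, LHX2, NKX2-1, NKX2-2 and IRX3. NKX2-1, a thyroid and lung factor, was at -0.36 in #10 and between -2.17 and -1.43 on the other arrays. NKX2-2, which acts in the ventral neural tube and pancreas, was at -1.78 in #10 and between -4.11 and -3.05 elsewhere. IRX3, a factor of neural and limb patterning, was at 1.15 in #10 and between -0.26 and 0.07 elsewhere.

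Set directly against #3, clone #10 was at least 2-fold higher for 18 members (37.5%, where 8.80% of all genes were) and at least 2-fold lower for 1, IRX2 (2.08%, against 4.26%). By class, the 18 were 10 NK and NK-like, 1 HOX-like, 3 paired-type, 2 LIM and 2 TALE genes. ALX4 and LHX4 among them were not well above background on any array.

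**Figure D4:**
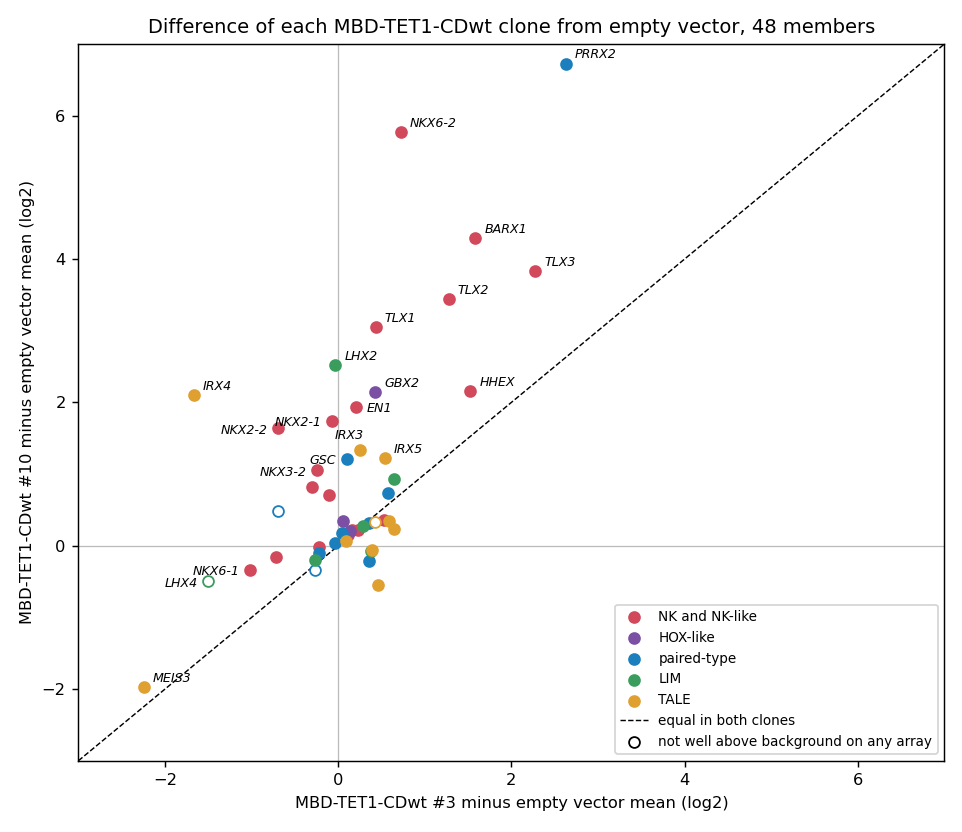
Difference from the empty vector mean on the log2 scale for MBD-TET1-CDwt #3 (x axis) and #10 (y axis), each point 1 of 48 members coloured by class, with a dashed line where both clones are equal. In #10, 17 members lie at least 1 above empty vector and in #3 5 do, while MEIS3 lies at least 1 below in both.

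The counts depended on the clone. With #3 left out, #10 stood alone for MBD-TET1-CDwt, and 16 members were at least 2-fold higher than empty vector (3.56% of all genes). With #10 left out, 5 were (2.47% of all genes): TLX2, TLX3, BARX1, HHEX and PRRX2. Against MBD-TET1-CDmut the count was 13 without #3 (3.1% of all genes) and 2 without #10 (2.41%), TLX3 and PRRX2. LHX2 without #10 was at -0.034 against empty vector.

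The members were compared with other genes of the same families and with proteins that act with them. Of 99 other homeobox genes outside the HOX clusters, 95 were on the array and 56 were well above background on all 8 arrays. DLX3, a factor of ectoderm and placenta, was the one gene 2-fold or more above empty vector in MBD-TET1-CDwt (at least 3.23-fold, since it was not well above background in empty vector), and PAX7, a muscle progenitor factor, the one lower by 1 of its probes. Against MBD-TET1-CDmut, PAX7 was again lower. limma called 0 of 67 tested genes in either comparison. The 48 members were named with earlier results of these arrays known. The gap between their share and that of the other homeobox genes, or of all genes, is therefore a description.

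LIM proteins act through LDB and LMO cofactors, TALE proteins beside PKNOX, and several homeodomain proteins through Groucho corepressors. Of these, 10 of 11 LIM and TALE cofactors and all 6 Groucho genes were on the array, and 0 were at least 2-fold higher or lower in any comparison. The same held for 10 of 11 genes of Polycomb repressive complex 2, which keeps many homeobox genes silent. The median log2 difference between MBD-TET1-CDwt and empty vector was -0.03 for the cofactors, -0.04 for the Groucho genes and 0.00 for Polycomb repressive complex 2.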

How the data were processed

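Cy3-labelled cRNA from 8 stable HEK293T lines was measured on 1-colour Agilent arrays. The values the authors deposited are processed signal intensities of Agilent Feature Extraction (version 10.7.3.1 in the file headers, 9.5.1 in the submitters' processing notes), background-subtracted on a linear scale with no scaling between arrays. The table of the whole series deposited by the authors holds the same intensities. The study's methods name no normalization.

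Outlier spots were left out, log2 intensities were scaled to the 75th percentile of each array's non-control probes and spots of a probe were averaged. Of 34127 probes, 25422 were named through RefSeq transcripts (19483 genes), and the probe with the highest mean signal stood for a gene. A gene counted as at least 2-fold higher where a probe was well above background (over 50% of its spots) on both arrays of the higher group, with dim signals of the lower group set to the lowest detectable one of their array. limma 3.58.1 (R 4.3.3) was fitted to 4 group means over the 22530 probes that both arrays of some group flagged as well above background, with 4 residual degrees of freedom and Benjamini-Hochberg adjustment over all probes tested. Probes with a missing spot (37) were left out. Tested on simulated data (22530 probes, MBD-TET1-CDwt and empty vector), limma recovered 7, 33, 44 and 45 of 50 probes changed by 1, 2, 3 and 4 on the log2 scale, with 10 false calls. Simulated arrays of a probe had the same spread in every vector. Over the members the SD of a clone was 1.07 in MBD-TET1-CDwt and 0.29 in empty vector, so this recovery may not hold for them. The p-values measure the spread between 2 clones a group, each measured once. With a clone left out, the remaining one is assumed to vary like those of the other groups. The number of arrays limits the precision.

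The members and lists were chosen with earlier results of these data known. Named members are those at least 2-fold different or called by limma in any comparison, those first detected, and the 3 largest differences each way between MBD-TET1-CDwt and MBD-TET1-CDmut among members detected on all arrays. TLX1, PITX1, NKX6-1 and other members given beside them were named after their values were seen. One result among the other homeobox genes is not reported here. No gene of the other lists was at least 2-fold higher in both comparisons. Settings varied one at a time were the background correction, the scaling (quantile or median), the filter, the fit and the clone left out. Python 3.11.15, numpy 2.4.6, pandas 2.3.3 and matplotlib 3.10.9 were used. Coordinates are those of the RefSeq promoter table, since the array files were not used for any.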

Additional observations from a re-analysis of the deposited data

How the results depend on the processing

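No paired analysis was possible because the clones of each vector were isolated independently, and an equal clone number does not make a pair. Scanner files without a mean signal were corrected by normexp on the median signal, leaving out 1 to 13 spots on 4 arrays below their local background, on which the fit failed. An offset of 50 was added to every corrected intensity, which shrinks log2 differences between dim signals. A version on the spot signal alone was chosen after seeing the data and is given second where the values differ. It moved the median of all genes to 0.13 or 0.14 (MBD-TET1-CDwt against empty vector) and -0.12 (TET1-CDwt), and with either version members at least 2-fold lower in MBD-TET1-CDwt went to 0 against both controls, those higher than MBD-TET1-CDmut to 2, limma calls of members to 0, of probes from 26 and 23 to 2 and 2, and of the difference of differences from 10 to 1. Clone #10 was then 2-fold above the other arrays for 6 members instead of 10 (scalings of this count and of the count of 25 were tried after seeing the data). The share of all genes was not counted there. Normexp changed the median of MBD-TET1-CDmut against empty vector from 0.17 to 0.11 or 0.12, and turned the differences from MBD-TET1-CDmut of NKX6-2 to 0.071 or 0.070 and of TLX2 to -0.24 or -0.26. Quantile and median scaling gave 1 member higher in TET1-CDwt, 5 and 3 probes in the difference of differences, and median scaling a median of 0.10 for TET1-CDwt (0.077 over tested members). Asking for 5-fold left 5 (empty vector), 1 (MBD-TET1-CDmut) and 1 member (MBD-TET1-CDmut against empty vector), where 0.303%, 0.226% and 0.0359% of all genes passed. Asking for every clone 2-fold above every clone left 5, 2 and 1, and the share of all genes under that rule was not counted. limma called 10 and 11 probes without a filter, 0 and 0 over probes detected on all arrays, 16 and 10 with trend and robust, 2 and 5 with the 4 arrays compared (1 for MBD-TET1-CDmut against empty vector), and 0 members in each. First detection was 2 with 1 array sufficient and 0 with the looser flag.

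Leaving out each clone gave 5 to 16 members higher and 1 to 3 lower than empty vector, and 2 to 13 higher and 1 to 3 lower than MBD-TET1-CDmut. For TET1-CDwt it gave 1 to 3 higher and 0 to 1 lower, for MBD-TET1-CDmut 2 to 4 and 0 to 1. With a clone left out, the share of all genes was counted only for genes higher in MBD-TET1-CDwt. limma called 10 to 195 and 10 to 225 probes, 0 to 4 and 0 to 3 members, 0 to 69 probes for TET1-CDwt, 0 to 46 for MBD-TET1-CDmut and 0 to 92 in the difference of differences. Medians were 0.18 to 0.34, 0.07 to 0.32, -0.044 to 0.054 and 0.092 to 0.18, and first detection 1 to 2. Against MBD-TET1-CDmut, the log2 difference ran from -2.90 (without #10 of MBD-TET1-CDwt) to 2.14 (without #3) for NKX6-2, from -3.32 to 0.44 for IRX4, from -0.47 to 1.26 for EN1 and from -0.25 to 2.31 for LHX2, and from -2.49 (without MBD-TET1-CDmut #10) to 2.63 (without #9) for TLX2, which was at -1.01 without #10 of MBD-TET1-CDwt. Against empty vector it ran from -0.034 to 2.52 for LHX2 and from -1.67 to 2.10 for IRX4 (without #10 and #3), the latter at -0.43 without empty vector #1. The cause of these changes was not tested beyond the clone left out. The largest SEs of a log2 difference from empty vector among members were 1.55 for TLX2, 1.53 for NKX6-2, 1.17 for PRRX2 and 1.09 for IRX4, with a median of 0.28 over the member probes tested.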
